A study of Mus musculus with 12 samples.

Results

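The wild type hearts of this series are the littermate controls of 2 transgenic mouse lines that carry human integrin-linked kinase (ILK) mutants, TgR211A and TgS343D, expressed in the heart. All samples with the genotype WT were taken, which gives 6 hearts of 12 in all, the others being 3 TgR211A and 3 TgS343D hearts. Every mouse was C57BL/6 and aged 8 to 9 weeks, and none of the groups carried another allele or agent by its label. RNA from each heart was hybridised to 1 Affymetrix GeneChip, whose probe sets each read 1 or more transcripts. Hearts 1, 3 and 6 form 1 set of littermates by their titles and hearts 8, 10 and 11 the other, and the titles do not pair a set with a line. The description of heart 1 names the left ventricle, while those of the other wild type hearts name the heart. The labels do not say if a heart came from an operated mouse. The study's methods, by contrast, describe the arrays as R211A carriers and non-carriers, each with or without infarction by coronary ligation. The labels name no infarction and a second line, so it is not settled that all 6 hearts were uninjured, and the values are those of wild type hearts as labelled.

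The adult mouse ventricle is a muscle of densely packed sarcomeres, in which myosin thick filaments pull on actin thin filaments when calcium released from the sarcoplasmic reticulum binds troponin. It works without pause and makes nearly all its ATP by oxidative phosphorylation, mainly from fatty acids. Many of its contractile and metabolic proteins have paralogues that are used in the embryo, the atrium, skeletal muscle or other organs. Endothelial cells, fibroblasts, pericytes and macrophages lie between the muscle cells.

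The deposited values are MAS5 signals, a linear measure of brightness that was scaled to the same trimmed mean on every array. The table holds 45037 probe sets besides the array controls, and a gene was read from its brightest probe set, which gave 18193 genes. As a dim reference, the 95th percentile of 81 probe sets for olfactory, vomeronasal and trace amine receptors was taken, a signal of 54.5, and 10458 genes (57.5%) had a mean above it. A gene below that level is called not above the reference, which is no proof that its RNA was absent. Probe sets bind their targets with different strength, so signals of different genes stand side by side here and no ratio is formed between them. A percentile is the share of all probe sets with a lower mean. The correlation of log2 signal between the wild type arrays was 0.933 to 0.945, the control probe sets for Actb had a 3' to 5' ratio of 1.09 to 1.24 and those for Gapdh 0.771 to 0.799. Endogenous Ilk had a signal of 551 to 657 in the wild type hearts, and the Ilk probe set read 3258 to 9553 in the transgenic hearts, so no wild type heart went against its genotype. Heart 1 is labelled male and the others female. Xist, which is transcribed from the inactive X chromosome, lay between 703 and 864 in all 6 hearts, with 718 in heart 1. The Y-linked Eif2s3y lay between 0.75 and 6.73, not above the reference, and heart 1 did not stand apart in either. These values go against the male label of heart 1. The tissue label was checked against Myh6, Myl2, Actc1 and Tnnt2, all of which were among the 16 brightest genes. This is a check for heart muscle, and it does not tell how much atrial tissue a sample held.

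The brightest transcripts belonged to energy supply and contraction. The brightest was Slc25a4, the mitochondrial adenine nucleotide translocator, at 14055 ± 953 (SD, n = 6). Fabp3, the heart fatty acid binding protein, followed at 13538 ± 675, then Tnnt2, cardiac troponin T, at 13087 ± 939 and Myh6, the alpha myosin heavy chain, at 12728 ± 973. Each of these 4 genes differed from the next in this order by less than its SD between hearts. By heart, Myh6 read 12483, 11910 and 14185 in hearts 1, 3 and 6 and 12127, 13696 and 11968 in hearts 8, 10 and 11. Myl2, the ventricular regulatory light chain, read 11907, 10946 and 12117 in the first set and 11530, 12926 and 10893 in the second. Tnnt2 read 13120, 11958 and 14205, then 12927, 14119 and 12196. Hearts 6 and 10 were the 2 highest for all 3 genes, and the fold between the highest and lowest heart was 1.19 for each.

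Of the 100 brightest genes, 40 encode subunits of oxidative phosphorylation or cytochrome c, and 21 serve fuel use and energy transfer. Another 15 belong to the sarcomere, 5 are cytosolic ribosomal proteins, 2 handle calcium and 2 were counted as small heat shock proteins. Each gene was counted once, and Cryab, also a small heat shock protein, was counted with the sarcomere. ND5, the mitochondrially encoded subunit that the array names, was also among the 100. The 100 genes held 14.6% ± 0.71 of the summed signal of all genes, with 13.9% in the lowest heart and 15.5% in the highest. Within oxidative phosphorylation, ATP synthase gave 12 of its 17 measured genes to the 100 brightest, complex IV 9 of 17, complex III 6 of 9 and complex I 11 of 34, while complex II, which also belongs to the citric acid cycle, gave 1 of 4. Genes were assigned to complexes by the start of their names and not by where a subunit sits, which counted Ndufa4 with complex I. Cycs, cytochrome c, read 11488 ± 356 and Atp5b, the catalytic beta subunit of ATP synthase, 11458 ± 590. Of the 82 genes of this family 79 were above the reference, and the exceptions were Cox6b2, Cox7b2 and Ndufb4. Cox6b2 and Cox7b2 are known as testis forms, and Ndufb4 is a ubiquitous subunit of complex I.

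Genes of fatty acid use were bright. All 25 measured genes of the 27 in the list were above the reference, with a median signal of 3699. Lpl, the lipase that frees fatty acids from lipoproteins, read 10549 ± 1179, the uptake protein Cd36 read 5994 ± 450 and the beta-oxidation enzymes Hadh, Acadm and Hadhb read 9576 ± 853, 8506 ± 507 and 8108 ± 650. The citric acid cycle had 23 of 23 genes above the reference and 7 among the 100 brightest, led by Mdh1 at 8755 ± 797 and Mdh2 at 8698 ± 794. Glycolysis and glucose entry had 14 of 14 above it. Oxct1, the enzyme that activates ketone bodies for oxidation, read 9012 ± 382. Mb, the oxygen store myoglobin, read 10394 ± 1125 and Slc25a3, the mitochondrial phosphate carrier, 10527 ± 840. Among brightest genes of no list were Tpt1, a translationally controlled protein, at 10389 ± 903 and Nnt, the mitochondrial transhydrogenase, at 6734 ± 757.

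The contractile apparatus was read at a level close to the top of the array. In the thick filament and M-band list 10 of 11 genes were above the reference, with Myl3 at 11970 ± 1199, Ttn, the molecular spring titin, at 10723 ± 922 and Mybpc3 at 7840 ± 842, while Myom3, a myomesin of skeletal muscle, was not above it at 31.3 ± 11.3. All 11 genes of the thin filament list were above the reference, among them Tnni3 at 10457 ± 1033, Tpm1 at 10283 ± 1034 and Tnnc1 at 9385 ± 858. All 17 genes of the Z-disc and costamere list were above it as well, and Fhl2, Tcap, Cryab and Csrp3 led them at 9872 ± 624, 8825 ± 717, 8621 ± 650 and 8254 ± 931. Calcium handling had 17 of 18 above the reference. Pln, the inhibitor of the calcium pump, read 11336 ± 613, the pump Atp2a2 read 9685 ± 938 and the release channel Ryr2 read 4724 ± 251. Fkbp1b, a small protein that binds Ryr2, was not above the reference at 26.2 ± 12.8. At the intercalated disc, which joins muscle cells end to end, 14 of 14 genes were above it, with the gap junction protein Gja1 at 6836 ± 529 and desmoplakin, Dsp, at 6036 ± 311.

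The adult ventricular members of protein families were all above the reference, 34 of 34, while 34 of the 80 other members were not. Over all genes 57.5% were above it, so the share among the other members was close to the background. Of 32 families with an adult ventricular member and at least 1 other measured member, the brightest probe set belonged to an adult ventricular member in 30. That count sets probe sets of unlike binding strength side by side, so it describes signals and not the relative amounts of the RNAs. The brightest member was the same in every heart in 30 of the 32 families. The exceptions were the creatine kinases, where Ckm was above Ckmt2 in heart 10, and the glycogen phosphorylases.

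Among the myosin heavy chains, Myh6 stood beside Myh7, the slow beta chain of the fetal and the loaded heart, at 726 ± 306 and Myh7b at 275 ± 47.7. The embryonic, neonatal and fast skeletal chains Myh3, Myh8, Myh1, Myh2 and Myh4 were not above the reference, at means of 7.48, 23.8, 6.94, 9.29 and 17.1. Troponin I was read as Tnni3, with the slow skeletal Tnni1, also the fetal cardiac form, at 10.8 ± 6.65 and the fast Tnni2 at 39.4 ± 13.3, neither above the reference. Troponin T was read as Tnnt2, beside slow Tnnt1 at 131 ± 5.47 and fast Tnnt3 at 15.6 ± 4.68. The ryanodine receptors of skeletal muscle and brain, Ryr1 and Ryr3, were not above the reference at 8.52 ± 4.14 and 47.5 ± 7.40. All 4 measured actins were above the reference. Actc1, cardiac actin, read 10653 ± 1287, skeletal Acta1 read 2289 ± 1298 and smooth muscle Acta2 read 2154 ± 483. The probe set for Acta2 may bind related transcripts, by the suffix of its name.

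**Figure D1:**
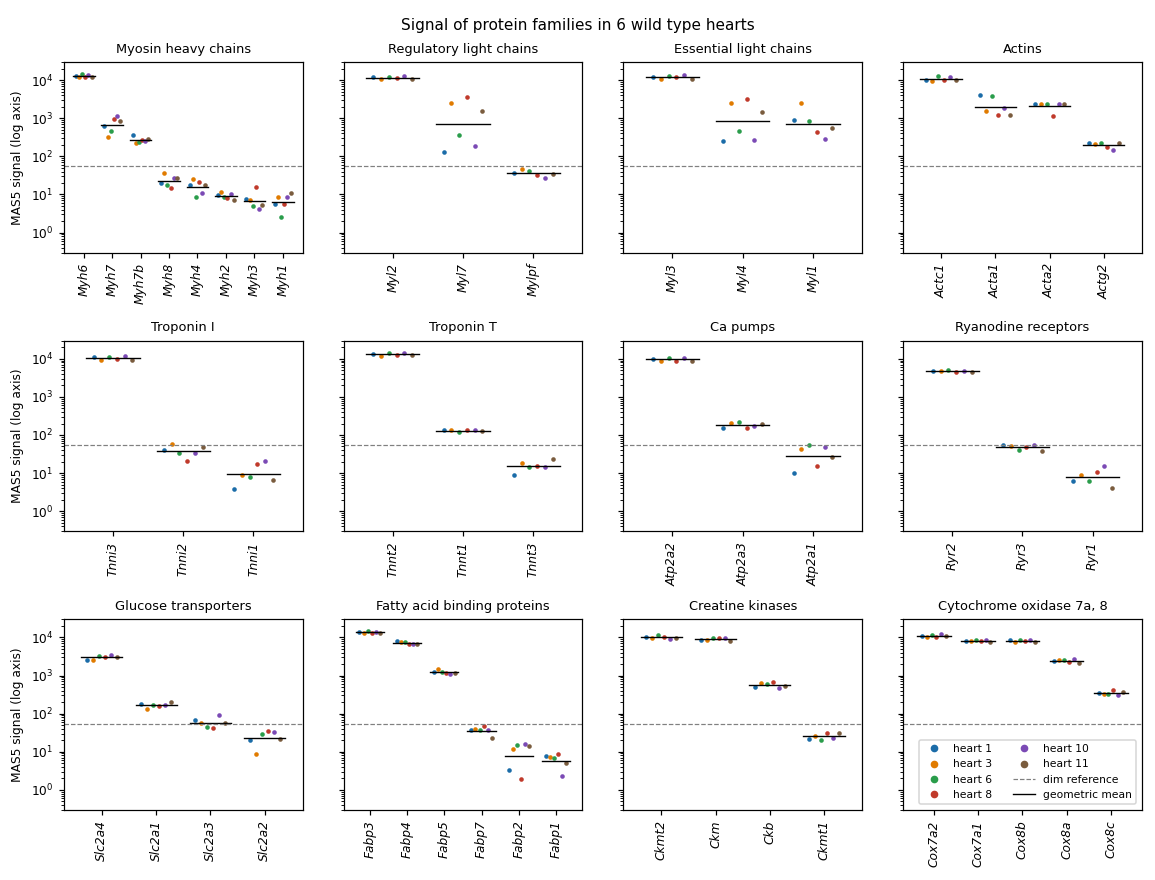
Signal of 12 protein families (MAS5 signal on a log axis), with a dot for each of the 6 hearts, a black line for the geometric mean and a dashed line for the dim reference of 54.5. The ventricular members Myh6, Myl2, Myl3, Tnni3, Tnnt2 and Ryr2 lie far above the dashed line in every heart, while Myl7, Myl4, Myl1, Acta1 and Myh7 are spread widely between hearts.

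In several metabolic families more than 1 member was above the reference. Cox7a2, the widely used form of a complex IV subunit, read 10976 ± 844 and Cox7a1, the heart and muscle form, 8152 ± 424. The heart forms Cox6a2 and Cox8b read 10344 ± 1026 and 8195 ± 557, beside Cox6a1 at 3433 ± 259 and Cox8a at 2417 ± 204. Muscle phosphorylase Pygm read 4187 ± 339 and brain phosphorylase Pygb 4263 ± 259, a difference within the spread between hearts. Lactate dehydrogenase was read as both Ldhb at 7064 ± 730 and Ldha at 5013 ± 124, and the testis form Ldhc was not above the reference. Slc2a4, the insulin-responsive glucose transporter, read 2986 ± 333, Slc2a1 169 ± 23.8 and Slc2a3 59.9 ± 18.7. The adult muscle elongation factor Eef1a2 read 7723 ± 684 and the general Eef1a1 6439 ± 242. Rpl3l, a ribosomal protein of striated muscle, read 2114 ± 142. For several families a member had no probe set that names it alone, among them Cpt1b and Eno1, and these were not analysed here.

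The transcription factors of the heart were read at intermediate signals. Of 20 measured, 17 were above the reference. Mef2a, a MADS box factor of muscle genes, read 2399 ± 218, Tead1 1648 ± 101, Tbx20 1288 ± 89.9, Gata6 1080 ± 128, Gata4 674 ± 48.4 and Nkx2-5 708 ± 18.6. Irx4, a homeobox factor of the ventricle, read 262 ± 36.9 and Tbx5 263 ± 49.6. Hey2, another ventricular factor, was not above the reference at 35.4 ± 5.39, nor were Gata5 and Mef2b. In the ion channel list 16 of 18 were above it, led by Abcc9 and Kcnj11, which form the ATP-sensitive potassium channel, at 2933 ± 249 and 1695 ± 154.

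Most markers of the resident cell types were above the reference, to a different degree by type. Bulk tissue gives 1 signal for all cells, so fewer cells of a type and less RNA per cell cannot be told apart. In the ventricular muscle cell list 12 of 13 were above it, in the vascular endothelial list 13 of 13, in the pericyte list 8 of 8, in the lymphatic endothelial list 5 of 5, in the fibroblast list 11 of 12 and in the macrophage list 12 of 13, beside 57.5% of all genes. The share was lower in the endocardial list with 4 of 5, the smooth muscle list with 6 of 8, the Schwann cell and nerve list with 5 of 7 and the conduction system list with 5 of 8. Among endothelial markers the junction protein Cdh5 read 900 ± 111, Kdr, the main receptor for vascular endothelial growth factor, 602 ± 53.7 and Pecam1 529 ± 59.3. Fabp4, a lipid carrier of capillary endothelium and fat cells, read 7200 ± 575. In the fat cell list 4 of 9 genes were above the reference, while Adipoq and Lep, at 26.3 ± 13.2 and 5.60 ± 4.37, were not. Rgs5 and Kcnj8 of pericytes read 5082 ± 388 and 416 ± 36.2. Fibroblast Dcn and Col3a1 read 5250 ± 400 and 2728 ± 384. Macrophage Lyz2 read 1149 ± 207, Csf1r, the growth factor receptor of the lineage, 797 ± 88.5 and C1qa 577 ± 79.2, while Cx3cr1 was not above the reference at 41.9 ± 11.6.

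Few markers of T cells, B cells, granulocytes and neighbouring organs were above the reference. Of the T cell list 1 of 8 was above the reference, of the B cell list 2 of 6, of the mast cell list 1 of 7 and of the neutrophil list 1 of 7. Other blood lists had more, with 4 of 6 in the plasma cell list, 5 of 6 in the platelet list and 3 of 6 in the erythroid list. The T cell receptor chain genes Cd3e, Cd3d and Cd3g read 11.8 ± 3.28, 5.54 ± 2.47 and 26.8 ± 4.84. The neutrophil genes S100a8 and S100a9 read 39.7 ± 12.1 and 18.1 ± 14.2. The lung, liver, thymus and cartilage lists each had 1 gene above the reference. In the skeletal muscle list 2 of 11 were above it, and those were Ckm, which the heart also expresses, and Mybpc2 at 131 ± 36.0. In the list of proliferation genes 2 of 9 were above the reference, with Mki67 at 37.1 ± 8.23 and Top2a between 32.95 and 52.6, neither of them among those 2. In the scar and activated fibroblast list 6 of 9 were above the reference. Postn, a matrix protein of activated fibroblasts, read 367 ± 63.3, Timp1 57.5 ± 20.1 and Cthrc1, which marks scar fibroblasts, was not above it at 27.8 ± 2.73.

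**Figure D2:**
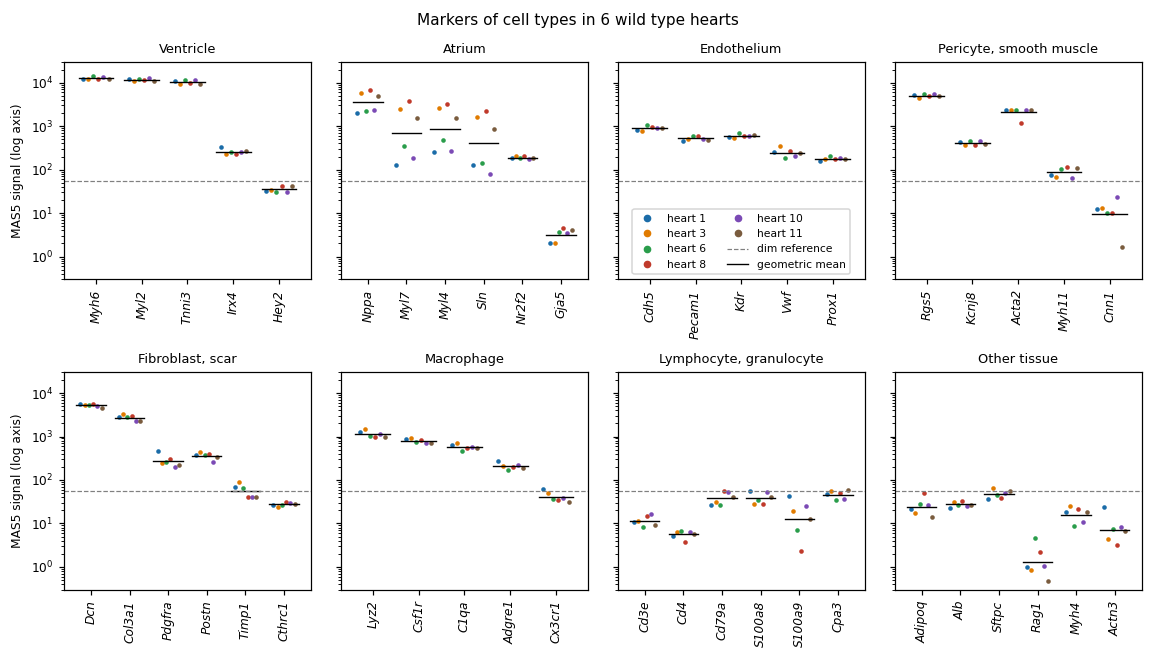
Markers of 8 groups of cells (MAS5 signal on a log axis), with a dot for each of the 6 hearts, a black line for the geometric mean and a dashed line for the dim reference of 54.5. Endothelial, fibroblast and macrophage markers lie mostly above the line, lymphocyte and granulocyte markers and those of other tissues lie at or below it, and the atrial markers Nppa, Myl7, Myl4 and Sln are spread widely between hearts.

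The spread between the hearts was small for most genes. Among the 8341 genes with a geometric mean signal of at least 100, the median SD of log2 signal was 0.135 and the 95th percentile 0.319. The median SD was 0.173 for genes with signals of 100 to 200 and 0.101 in the brightest 236. In 82 genes (0.983%) the SD was over 0.5, and in 12 it was over 1. The steadiest gene was Sri, the calcium-binding sorcin, at 452 ± 4.56, and next came Gphn, Pabpn1, Hnrnpul2, Eif1ax and Ncl. Actr8 and Fundc2 had the same SD of log2 signal as Ncl, 0.023. The 40 genes with the largest SD were taken as the variable ones. The 40th and 41st genes by SD both had 0.63, so the limit of the list is arbitrary. These values chose the 40 genes, and their spread is given as a description.

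**Figure D3:**
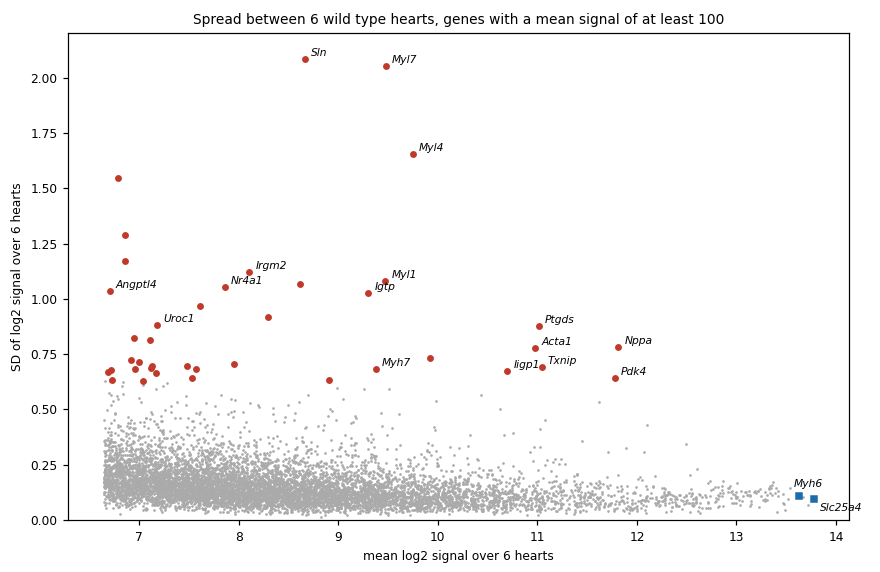
SD of log2 signal over the 6 hearts against the mean log2 signal, a grey dot for each of the 8341 genes with a mean signal of at least 100, red dots for the 40 most variable and blue squares for Myh6 and Slc25a4. Sln, Myl7 and Myl4 have SDs of 2.08, 2.05 and 1.65, while Myh6 and Slc25a4 have 0.11 and 0.10.

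The spread of these 40 genes was then looked at in the 6 transgenic hearts, which the choice did not use, within each line. Of the 40, 31 were in the top 5% of genes by SD within the lines. Their median SD there was 0.42, against 0.12 for all 8341 genes. The highest value of a gene was in heart 10 for 13 of the 40, in heart 3 for 9 and in heart 8 for 8. Over all 8341 genes the shares were 18.4%, 20.3% and 13.8%, so the count for heart 3 is close to the background. The sets of littermates did not overlap in 6 of the 40, namely Myl1, Nr4a1, Tmem267, Myh7, Pdk4 and Ciart. Over all 8341 genes the sets did not overlap in 12.5%, so that count is close to the background.

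The largest spread was in atrial genes. Sln, sarcolipin, an inhibitor of the calcium pump in the atrium, read 128, 1623 and 143 in hearts 1, 3 and 6 and 2202, 79.2 and 867 in hearts 8, 10 and 11. Myl7, the atrial regulatory light chain, read 131, 2534 and 359 in the first set and 3707, 187 and 1583 in the second. Myl4, the atrial essential light chain, read 252, 2564 and 470, then 3299, 265 and 1504. In all 3 genes the values of hearts 3, 8 and 11 were above those of hearts 1, 6 and 10, and heart 8 was the highest. The fold between the highest and lowest heart was 28.4 for Myl7, 27.8 for Sln and 13.1 for Myl4. Nppa, which encodes atrial natriuretic peptide and is also read in the ventricle, had values of 2031, 5899 and 2293, then 6691, 2312 and 5063, in the same order of hearts as Myl4 except among the 3 lowest. Mybphl and Dkk3 had geometric means under 100 and so could not enter the 40. Mybphl, a myosin binding protein of the atrium and conduction system, read 10.3, 236 and 44.5, then 289, 30.4 and 141, and Dkk3 read 29.7, 168 and 42.5, then 218, 33.1 and 128.

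Of the 8 atrial markers with a mean signal of at least 100, 6 were highest in heart 8 and 2 in heart 11. Over all 8341 genes 13.8% were highest in heart 8. Not all atrial markers had so wide a spread. Nr2f2, an atrial transcription factor that is also made by veins and lymphatic vessels, lay between 179 and 204, and Kcna5 between 159 and 268. Gja5, a connexin of atrium and conduction fibres, was not above the reference at 3.32 ± 1.06, too dim for its spread to be read. The summed signal of the 12 measured atrial markers ran from 3902 in the lowest heart to 17876 in the highest. On the log2 scale, the mean of the 10 atrial markers above the reference deviated from its mean over hearts by -0.92, 0.84 and -0.60 in hearts 1, 3 and 6 and by 0.95, -0.85 and 0.59 in hearts 8, 10 and 11. The ventricular list, which also holds general heart muscle genes such as Ttn, Ryr2 and Actc1, deviated by 0.13 at most in either direction. It is therefore no measure of ventricular tissue apart from atrial tissue. In the transgenic hearts Myl7 ranged from 63.6 to 4910 and Sln from 7.79 to 3682. Upk3b, a marker of the mesothelium that covers the heart, read 72.2, 170 and 71.2, then 153, 63.3 and 126, and in that list 2 of 8 genes were above the reference, while its defining members Msln and Krt19 were not above the reference at 27.1 ± 13.4 and 15.96 ± 12.1. How much atrial tissue a sample held is not given by the labels, and its part in this spread was not tested.

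Promoters of these genes are shown because the genes vary together. They are the 150 bases before the start of transcription in RefSeq (GRCm38.p6), on the strand of the gene, and capitals mark a CArG box, the site of serum response factor, spelled CC, 6 bases of A or T, then GG. A match is a description of the letters, and 1.63% of the 32851 promoters searched, each of 300 bases, held this motif on either strand.
Myl7 (chr11:5898783-5898932, minus strand): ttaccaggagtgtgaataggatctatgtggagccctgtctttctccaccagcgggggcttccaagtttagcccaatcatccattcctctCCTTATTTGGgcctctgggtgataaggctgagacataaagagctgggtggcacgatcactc
Nppa (chr4:148000572-148000721, plus strand): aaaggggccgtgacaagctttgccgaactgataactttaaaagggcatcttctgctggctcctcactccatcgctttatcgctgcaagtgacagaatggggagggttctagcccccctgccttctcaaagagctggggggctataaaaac
Of the 3 atrial genes with an entry, Myl7, Myl4 and Nppa, 1 held a match, at 61 bases before the start in Myl7. The promoter of Actc1, whose SD of log2 signal was 0.17 beside 2.05 for Myl7, held a match too, at 47 bases.

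In heart 10, genes induced by interferon and genes of antigen presentation were at their highest. Igtp, an immunity-related GTPase, read 583, 800 and 356 in hearts 1, 3 and 6 and 500, 2285 and 331 in hearts 8, 10 and 11. Irgm2, a regulator of the same family, read 314, 372 and 140, then 169, 1066 and 148. Iigp1 read 1458, 2140 and 1273, then 1266, 3802 and 1096. Heart 10 was the highest in each and heart 3 the second. Gbp6, a guanylate-binding protein, read 1010 in heart 10 and 162 to 363 elsewhere, and Ifi47 read 270 in heart 10 and 82.3 to 180 elsewhere. Tap1, which carries peptides into the endoplasmic reticulum for loading on class I molecules, read 146, 185 and 107, then 114, 311 and 86.6.

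The pattern reached most of both lists. Of 29 genes of the interferon and antigen presentation lists with a mean signal of at least 100, 21 (72.4%) were highest in heart 10. Over all 8341 genes that share was 18.4%. Lowest in heart 11 were 18 of the 29, beside 1438 of the 8341. Class I genes H2-K1 and H2-D1 read 5840 and 3649 in heart 10, and 2310 to 3622 and 1598 to 2511 in the others. B2m, the light chain of class I molecules, read 7245 in heart 10 and 3235 to 4898 in the others. Class II genes were not uniform. H2-Aa read 1261, 1379 and 834, then 779, 1709 and 421, and Cd74, the chaperone of class II molecules, read 1260, 1294 and 895, then 874, 1533 and 544, with heart 11 lowest in both. H2-Eb1 was likewise highest in heart 10, at 840, and lowest in heart 11, at 289. H2-Ab1 went otherwise, at 383, 537 and 540, then 575, 562 and 388, highest in heart 8 and lowest in heart 1. Classical targets of type I interferon had smaller spreads. Ifit1, Ifit3, Irf7 and Oas1a had SDs of 0.33, 0.28, 0.26 and 0.18, and Mx1 and Mx2 were not above the reference. Macrophage markers were not highest in heart 10 in any of the 9 genes with a signal of at least 100. The highest heart was heart 3 in 6 and heart 1 in 3, beside 20.3% and 20.5% of all 8341 genes. In the T cell list the summed signal of the 8 measured genes ran from 118 to 203, and Cd8a, a co-receptor of cytotoxic T cells, was the 1 gene above the reference. It read 65.7, 84.8 and 65.1, then 81.9, 104 and 88.9, so it too was highest in heart 10. The defining markers Cd3e, Cd3d and Cd3g were not above the reference in any heart, and their highest values, of 16.5, 8.43 and 32.4, were in heart 10 as well. The part of infiltrating cells in this pattern was not tested. The 40 variable genes held 5 genes of these lists (Igtp, Iigp1, Tap1, H2-Aa and H2-Eb1), a number that was 1 when ranked without heart 10 and 2 without heart 11. In the transgenic hearts Igtp ranged from 378 to 822 and Irgm2 from 161 to 392, below their levels in heart 10.

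The promoters of Igtp, Irgm2 and Tap1 are shown because their genes were high in the same heart. They cover the 150 bases before the start in RefSeq (GRCm38.p6), on the strand of the gene. Capitals mark an interferon-stimulated response element, spelled as GAAA, any 2 bases and GAAA again, and a gamma-activated site, spelled TTCNNNGAA.
Igtp (chr11:58199406-58199555, plus strand): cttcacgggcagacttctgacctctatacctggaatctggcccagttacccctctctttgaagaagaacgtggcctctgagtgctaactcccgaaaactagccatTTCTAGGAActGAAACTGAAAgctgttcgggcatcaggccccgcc
Irgm2 (chr11:58214827-58214976, plus strand): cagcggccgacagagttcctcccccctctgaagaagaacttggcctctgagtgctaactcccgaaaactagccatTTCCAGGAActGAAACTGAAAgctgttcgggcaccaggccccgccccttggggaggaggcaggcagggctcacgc
Tap1 (chr17:34187406-34187555, plus strand): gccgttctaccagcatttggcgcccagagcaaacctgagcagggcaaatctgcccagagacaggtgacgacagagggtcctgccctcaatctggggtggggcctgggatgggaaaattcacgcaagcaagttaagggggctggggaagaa
Igtp and Irgm2 each held both motifs, which begin 34 and 45 bases before the start in Igtp and 64 and 75 in Irgm2. The windows of these neighbouring genes lie 15.4 kb apart and share a run of 38 identical bases. Neither motif was found in the 300 bases of Tap1, Ifi47, H2-Aa or H2-Eb1, so 2 of the 6 genes of this kind that were searched held each. Iigp1 and Gbp6 were not among those 6. Of all promoters searched on both strands, 3.44% held the first motif and 8.30% the second.

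Immediate early genes, which cells switch on within minutes of a stimulus, differed between hearts too. Nr4a1, an orphan nuclear receptor, read 131, 147 and 93.9 in hearts 1, 3 and 6 and 517, 460 and 364 in hearts 8, 10 and 11, with no overlap of the sets. Egr1 read 140, 389 and 155, then 474, 262 and 216, and there the sets overlapped. Fos read 37.9, 101 and 26.5, then 207, 84.9 and 64.9. Of 14 genes of the list with a signal of at least 100, 9 (64.3%) were highest in heart 8, beside 13.8% of all 8341 genes, and 7 lowest in heart 1, as were 1145 of the 8341. Dusp1, a phosphatase of this group, read 943 to 1802. In the transgenic lines the SD of Nr4a1 was 0.27, under the limit of the top 5%.

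Some fasting and fuel genes differed between hearts as well. Pdk4, the kinase that shuts off pyruvate oxidation, read 4552, 5335 and 4220, then 3981, 2939 and 1557, so every heart of the first set lay above the second. Ucp3, a mitochondrial carrier, read 522, 959 and 626, then 528, 423 and 308, and Angptl4, an inhibitor of lipoprotein lipase, 80.1, 352 and 104, then 139, 76.0 and 41.7. Heart 3 was the highest and heart 11 the lowest in all 3. Txnip, which curbs glucose uptake, read 1595, 3929 and 3222, then 2569, 1367 and 1248. The order was otherwise for other genes of the glucocorticoid and fasting list. Of its 17 genes with a signal of at least 100, 4 (23.5%) were highest in heart 3. Over all 8341 genes that share was 20.3%, so the count is close to the background. Ddit4 and Sgk1, which are induced by glucocorticoids, were highest in heart 11 and heart 10, at 771 and 931, and the list as a whole deviated by 0.16 at most in either direction. Ciart, a repressor of the circadian clock, read 61.2, 102 and 67.6, then 121, 144 and 191, and Per1 read 136, 218 and 218, then 312, 305 and 393. The hour at which hearts were taken is not given by the labels.

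Sarcomere and stress genes of the fetal or loaded heart varied in more than 1 pattern. Acta1 read 4001, 1584 and 3877 in hearts 1, 3 and 6 and 1222, 1815 and 1233 in hearts 8, 10 and 11, so hearts 1 and 6 stood above the rest. Myh7 read 637, 325 and 458, then 937, 1130 and 868, so the second set lay above the first. Myl1, the fast skeletal and fetal essential light chain, read 923, 2458 and 826, then 439, 278 and 564, so the first set lay above the second. Nppb, brain natriuretic peptide, read 2532, 1876 and 2212, then 1664, 2876 and 1637. Ankrd1, a stretch-responsive repeat protein, read 5295, 3112 and 5506, then 4117, 4500 and 3790. Hearts 1, 6 and 10 were the 3 highest for Acta1, Nppb and Ankrd1. They were so too for Ptgds, the enzyme that makes prostaglandin D2, which read 3060, 837 and 3465, then 1118, 3249 and 2446.

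**Figure D4:**
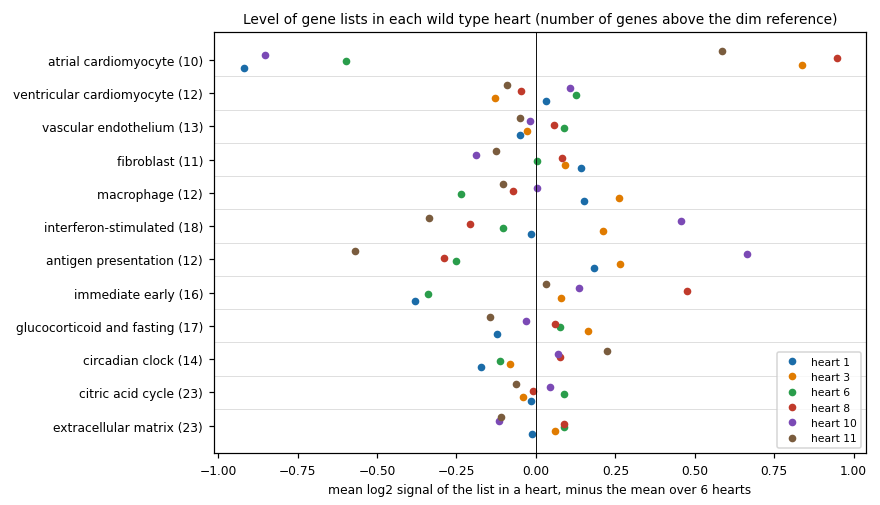
Level of 12 gene lists in each heart: the mean log2 signal of the genes above the dim reference in a heart minus its mean over the 6 hearts, a dot for each heart, with the number of genes in brackets. The atrial list runs from -0.92 in heart 1 to 0.95 in heart 8 and the antigen presentation list from -0.57 in heart 11 to 0.66 in heart 10, while the ventricular and citric acid cycle lists stay close to 0.

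Some variable genes rested on a single probe set. Of the 40 genes, 20 had another probe set that names them alone, and in 8 genes another had a signal of at least 100. Those 8 genes had 10 such probe sets, of which 5 were highest in the same heart as the brightest one. The second probe sets of Iigp1 and Gbp6 read 1333 and 481 in heart 10 and at most 674 and 168 in the others. The other 2 probe sets of H2-Aa with such a signal were highest in heart 10 and lowest in heart 11, and that of Ptgds was lowest in heart 3. Others did not follow. Pdzd11 read 70.9 in heart 1 from its brightest probe set, where it was lowest, and 192 from another, and Hoxa5 and Pigz, which were low in heart 10 and heart 11 at 23.9 and 19.0, had no other probe set with a signal of at least 100. Sln, Myl4 and Tap1 had other probe sets too, all with means below the reference.

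**Figure D5:**
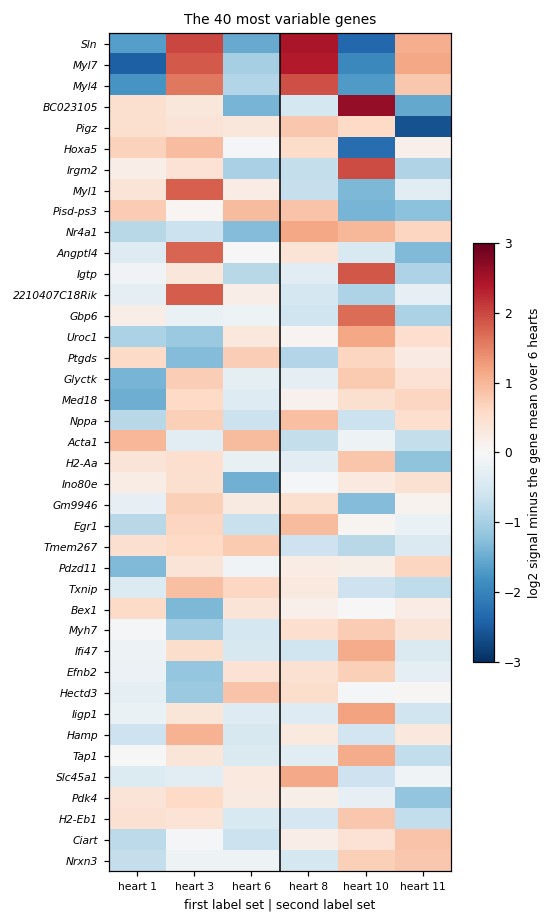
Heat map of the 40 most variable genes (rows, by SD) in the 6 hearts (columns), coloured by log2 signal minus the mean of the gene, with a black line between the 2 sets of littermates. Sln, Myl7, Myl4 and Nppa are high in hearts 3, 8 and 11, and Irgm2, Igtp, Gbp6, Iigp1, Ifi47 and Tap1 are high in heart 10.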

How the data were processed

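Left ventricular or heart RNA of 12 mice was hybridised to 1 Affymetrix array each. The authors deposited MAS5 signals, which are intensities that have not been taken to logs, and their methods name GCOS as the source of the array data. Neither the version nor the target of scaling was found in the labels or methods. The mean of each array without the lowest and highest 2% of features was 150. Deposited signals were converted to log2 with no offset and no further normalization. The 64 array controls were left out. The annotation table of the platform names a single gene for 34945 probe sets, more than 1 for 932 and no gene for 9160, and symbols were updated with RefSeq. Of the probe sets that name a gene alone, the one with the highest mean log2 signal stood for it. No groups were compared by a test. The 6 wild type hearts were described by means, SDs, percentiles and counts, Dixon's ratio was used to mark single hearts that lay apart, and the number of arrays limits the precision. As nothing says more than that they were separate mice, the SD holds both biological and technical spread. The 30 brightest genes, the paralogue families, the transcription factor list, up to 4 of the brightest members of 28 cell type and 22 pathway lists, defining markers that were not above the reference, the 40 most variable and 15 least variable genes could be named. Members and lists were chosen with earlier results of these data known. Other genes named, such as Nnt, Mybphl, Tpt1 and Rpl3l, were chosen after their values were seen. The ranking by spread was tested on simulated data. Python 3.11.15, pandas 2.3.3, numpy 2.4.6, statsmodels 0.14.6 and matplotlib 3.10.9 were used. Alternatives were the median of a gene's probe sets, probe sets without a suffix for shared binding, quantile normalization, centring on the median, a higher reference, other measures and filters of spread, and leaving out each heart.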

Additional observations from a re-analysis of the deposited data

Results flagged for a closer look

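In 7 of the 186 genes named and read in the text, 1 heart lay apart from the other 5, judged by its gap on the log2 scale to the nearest heart as a share of the whole range, at the 95% limit for 6 values. Chance gives this in about 1 in 20 groups that were not chosen for their spread, a rate that does not hold for Pigz, Hoxa5 and Pdzd11, which were named for their large SD over the same hearts. Acta2, smooth muscle actin, was low in heart 8, at 1171 where the other hearts read 2302 to 2380, with a gap of 0.953 of the range. Pigz was low in heart 11 (gap 0.859, 19.0 beside 146 to 204) and Hoxa5 in heart 10 (gap 0.700, 23.9 beside 113 to 221). Pdzd11 was low in heart 1 with a gap of 0.627, and another of its probe sets did not share that. Nkx2-5, a cardiac homeobox factor, was high in heart 11 with a gap of 0.643, although its values ran only from 689 to 743. Fkbp1b (gap 0.869, low in heart 11) and Ldhc (gap 0.740, high in heart 3) were not above the dim reference.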

How the results depend on the processing

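For 26 results, recomputed under 305 alternatives in all, 284 values stayed within the spread between hearts or within 1.5 times, and 21 moved further. The results are counts, shares and mean signals, which have no direction that could turn. The share of the summed signal in the 100 brightest genes was 18.8% with the median of a gene's probe sets and 17.2% without suffixed probe sets, and 14.4% to 14.8% when 1 heart was left out. Families led by an adult ventricular member numbered 22 without suffixed probe sets. Of the 40 most variable genes, 26 remained with the median probe set, 24 by the median absolute deviation, 14 with a minimum signal of 400, 2 with no minimum and 29 to 35 when 1 heart was left out. Atrial genes among the 40 numbered 2 with no minimum. Interferon and antigen presentation genes numbered 0 with no minimum, 8 with a minimum of 400 and 1 to 5 when 1 heart was left out. Genes with no overlap of the littermate sets numbered 14 with a minimum of 400 (background 13.0%), 1 by SD within the sets, which leaves out the difference between them, and 7 to 13 without 1 heart (background 20.4% to 25.2%). Where no reason is given, the cause was not tested. Tnnt2 read 10.60 on the log2 scale without suffixed probe sets and Sln 5.86 with the median probe set. Signals near the dim reference have a wider spread, so differences between hearts there were not ranked. No paired analysis was possible because no groups were compared.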

Other observations

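Stress and matrix genes of the wild type hearts ranged from bright to not above the dim reference. Of 19 heat shock genes 18 were above that reference. The small heat shock proteins Hspb7 and Hspb6, which keep muscle proteins from clumping, read 8973 ± 815 and 7221 ± 735 (SD, n = 6), and the constitutive chaperone Hspa8 read 5128 ± 266. The inducible Hspa1a was not above the reference at 40.3 ± 9.04 and Hspa1b read 83.0 ± 10.7. Hspa5, a chaperone of the endoplasmic reticulum, lay between 2753 in heart 3 and 5213 in heart 10. All 23 genes of the extracellular matrix list were above the reference, and after Dcn the collagen IV gene Col4a1 of basement membranes, at 3060 ± 319, and Sparc, at 3357 ± 459, were among the brightest. In the list of antioxidant and iron genes 16 of 17 were above it, with the ferritin heavy chain Fth1 at 9086 ± 451, while the haem oxygenase Hmox1 was not, at 42.3 ± 14.8. Tfrc, the transferrin receptor, lay between 875 in heart 8 and 2370 in heart 3.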
